A study of Homo sapiens with 12 samples.

Results

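Integrin subunits and the adaptor proteins of focal adhesions were followed at the RNA level in breast cancer cells that had or lacked CD44. The members were chosen by name, as the genes of the count table whose Ensembl identifier maps to a listed symbol. The list was drawn up with earlier results of these data known, so shares of called members are descriptive only. They are 47 of the 58381 genes in the table, 22 integrin subunits and 25 adaptors. After the filter on low counts, 19 subunits and all 25 adaptors were among the 15836 genes tested. ITGA9, ITGB6 and ITGB7 were not tested, with 2, 35 and 46 counts summed over all 12 libraries.

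Integrins are cell surface receptors built of an alpha and a beta chain that bind the extracellular matrix or proteins on other cells. The alpha chain largely sets which ligand is bound, and the beta tail recruits talin and kindlin, which switch the receptor on, and then vinculin, filamin and alpha-actinin, which tie it to actin. Paxillin, focal adhesion kinase and the tensins are scaffolds and signalling proteins of the adhesion plaque, through which carcinoma cells sense and pull on the matrix. CD44, the gene removed here, is itself a matrix receptor, best known for binding hyaluronan.

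The study compared CD44 WT with CD44 KO cells of the lines Hs578T and MDA-MB-231, both from triple negative breast cancer, with 3 RNA-seq libraries in each of the 4 groups. All groups came from a line with doxycycline-inducible Cas9 kept under puromycin. The KO cells received guide RNAs against exons 1 and 5 of CD44, and the WT cells only the transfection reagent. Both were sorted, WT as CD29+CD44+ and KO as CD29+CD44-, expanded in culture and starved in low serum before RNA was taken, so every group is a sorted population and not a clone. CD29 is the protein of ITGB1, 1 of the members, and both groups of each line were gated as positive for it. The sources do not say whether the replicates were separate cultures, so the p-values measure the spread between these libraries, which may be technical.

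The libraries held 10257586 to 19725543 counts, and no 2 of them were identical. CD44 ranged from 494 to 527 CPM in Hs578T CD44 WT and from 24.9 to 28.6 CPM in Hs578T CD44 KO, and from 360 to 363 against 30.0 to 40.3 CPM in MDA-MB-231. CPM is the share of a gene in its library, scaled by library size and TMM factors. Keratin KRT8 (307 to 571 CPM, group means) and the mesenchymal filament VIM (3862 to 6609 CPM) were high in all groups. The epithelial genes KRT19 and EPCAM stood at 280 and 17.6 CPM in MDA-MB-231 CD44 WT but at 0.237 and 0.0556 CPM in Hs578T CD44 WT, and the hormone receptor genes ESR1 and PGR did not pass 0.928 CPM in any group. The receptor gene ERBB2, also listed as low in triple negative cells, was at 57.4 to 101 CPM across the libraries of all groups. MDA-MB-231 CD44 WT replicate 1 lay farthest from its group: the median gene differed by 0.185 on the log2 scale from the group mean there, against 0.066 to 0.143 in the other 11 libraries.

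The repertoire of both lines was dominated by ITGB1, the beta chain shared by the collagen, laminin and fibronectin receptors. On the scale of RPKM, which divides by exonic length and so allows levels of different genes to be compared, ITGB1 was the highest subunit in all groups, with 124 ± 1.43 in Hs578T CD44 WT, 146 ± 8.94 in Hs578T CD44 KO, 97.8 ± 26.0 in MDA-MB-231 CD44 WT and 150 ± 1.85 in MDA-MB-231 CD44 KO (mean ± SD, n = 3). It made up 73.2% ± 1.80, 77.6% ± 2.26, 79.4% ± 4.61 and 86.0% ± 1.63 of the summed RPKM of the 8 beta subunits in the same order. The libraries of KO and WT did not overlap in this share in either line, with 71.3 to 74.9% against 76.2 to 80.2% in Hs578T and 74.2 to 82.8% against 84.5 to 87.7% in MDA-MB-231. ITGB5, a partner of the alpha v chain, took most of the rest, 24.8% ± 1.46 in Hs578T CD44 WT and 13.3% ± 4.21 in MDA-MB-231 CD44 WT. These shares are of RNA and not of receptors on the surface.

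Among the alpha chains the laminin-binding ITGA3 ranked highest in every group, with 37.0% ± 0.190 of the summed alpha subunit RPKM in Hs578T CD44 WT and 46.0% ± 6.01 in MDA-MB-231 CD44 WT. The next chain differed between the lines. In Hs578T CD44 WT it was ITGA5, the fibronectin receptor chain, with 24.9% ± 1.02, and ITGA6, another laminin-binding chain, followed with 14.96% ± 1.54. In MDA-MB-231 CD44 WT it was ITGA6 with 28.03% ± 2.74, followed by the collagen-binding ITGA2 with 11.8% ± 3.65, while ITGA5 held 6.41% ± 0.594. In CD44 KO cells ITGA3 held 31.6% ± 1.85 (Hs578T) and 36.9% ± 1.59 (MDA-MB-231), below every WT library of the same line. Its own level moved against this share in Hs578T, with 80.8 ± 4.62 RPKM in WT and 91.4 ± 3.97 in KO. In MDA-MB-231 the level was 93.2 ± 3.89 RPKM in WT and 79.2 ± 5.55 in KO. ITGA2 held 18.4% ± 2.36 in MDA-MB-231 CD44 KO, above every WT library, of which replicate 1 was lowest at 7.69%.

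**Figure D1:**
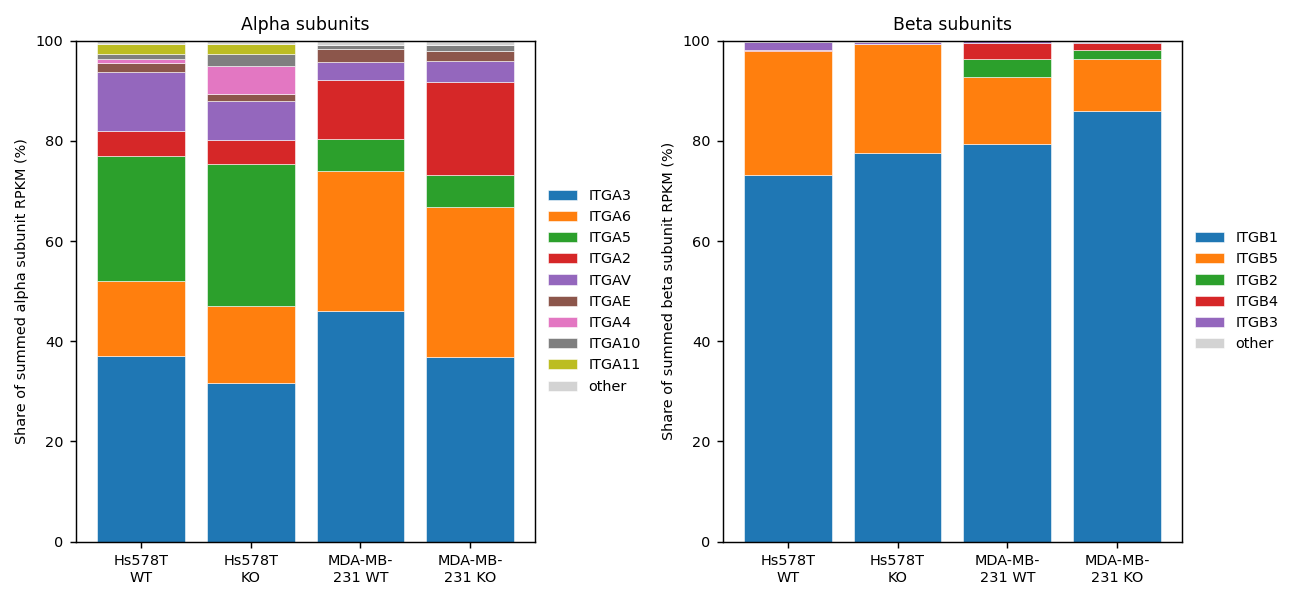
Share of each subunit in the summed RPKM of the alpha subunits (left) and of the beta subunits (right), in percent on the vertical axis, as the mean of 3 libraries in each of the 4 groups. Subunits that reach 1% in no group are pooled as other. ITGA3 and ITGB1 are the largest shares in each bar, ITGA5 is the second segment by size in Hs578T and ITGA6 in MDA-MB-231.

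In Hs578T, 6 of the 19 subunits tested changed between CD44 KO and CD44 WT. ITGA1, ITGA10, ITGA4 and ITGA5 rose and ITGA8 and ITGB3 fell. The calls come from the quasi-likelihood test of edgeR at a threshold of 0.01 for the Benjamini-Hochberg adjusted p over all tested genes, as does every adjusted p given here unless DESeq2 is named. Of all genes 7.51% were called in this comparison, 3.64% higher and 3.86% lower, against 31.6% of the subunits. As the list was chosen with earlier results of these data known, this contrast is descriptive and not an independent test. All of the 6 but ITGA5 changed at least 2-fold. The groups did not overlap for 15 of the 19 subunits, 10 higher and 5 lower in KO, against 37.3% of all genes (18.7% and 18.6%). The median log2 fold change, KO over WT, was 0.24 for the subunits and 0 for all genes.

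Of the 4 collagen-binding chains 2 were called (50%, beside 7.51% of all genes). All 4 were fitted above 0, with a median log2 fold change of 1.18, beside 0 for all genes. ITGA1, the alpha 1 chain of a receptor for collagen IV (ENSG00000213949.8, GRCh38 chromosome 5, 52787896 to 52959210), was at 2.43, 2.47 and 4.91 CPM in the 3 Hs578T CD44 WT libraries and at 13.4, 24.6 and 17.7 CPM in the CD44 KO libraries. Every KO library lay above every WT library, with a log2 fold change of 2.53 (SE 0.349, adjusted p = 0.00012).

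ITGA10, the alpha 10 chain known from cartilage (ENSG00000143127.12, chromosome 1, 145891208 to 145910189), was at 11.9, 14.3 and 11.3 CPM in WT and at 36.3, 52.0 and 44.7 CPM in KO. The groups were again apart, and the log2 fold change was 1.83 (SE 0.385, adjusted p = 0.00495). This call was lost when any of the 6 Hs578T libraries was left out, with adjusted p of up to 0.0292 and fold changes of 1.70 to 1.95. Over all genes these 6 fits called 605 to 1223 in Hs578T, beside 1189 with all 12 libraries. ITGA11 and ITGA2, the other collagen-binding chains, had log2 fold changes of 0.54 and 0.32 with adjusted p of 0.148 and 0.472.

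ITGA4, the alpha 4 chain that binds fibronectin and VCAM1 (ENSG00000115232.13, chromosome 2, 181457202 to 181536187), had the largest fitted rise of any subunit. Its WT libraries were spread, at 4.85, 12.8 and 24.6 CPM, while the KO libraries were close together at 133, 129 and 121 CPM. The lowest KO library was well above the highest WT library. A log2 fold change of 3.20 was fitted (SE 0.342, adjusted p = 5.51e-05), which ranged from 2.77 to 3.88 when single libraries were left out, the call holding each time. ITGA4 thereby went from 0.828% ± 0.620 to 5.58% ± 0.258 of the summed alpha subunit RPKM.

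ITGA4 is also a leukocyte integrin, and the leukocyte gene PTPRC was at 0.277, 0.576 and 0.254 CPM in Hs578T CD44 WT and at 4.81, 3.21 and 3.33 CPM in CD44 KO (log2 fold change 3.33, adjusted p = 3.19e-05). Of the other leukocyte markers, CD3E had 20 counts in WT and 13 in KO and CD68 had 2 and 6. The leukocyte chain ITGAX had 37 and 69 counts, with every KO library above WT in CPM (log2 fold change 0.79, adjusted p = 0.139). The endothelial markers PECAM1 (11.6 and 13.9 CPM), VWF (0.371 and 0.320 CPM) and CDH5 (1.08 and 1.02 CPM) were not called or not tested. The part of PTPRC-bearing cells in the ITGA4 result was not tested, and more cells with a transcript and more transcript per cell cannot be told apart in these bulk libraries.

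ITGA5, the main fibronectin receptor chain (ENSG00000161638.10, chromosome 12, 54395261 to 54419460), was at 391.99, 455 and 391.78 CPM in WT and at 592, 655 and 615 CPM in KO. It was the only 1 of the 5 highest subunits by RPKM in Hs578T CD44 WT that was called there, and its groups did not overlap. KO exceeded WT by a log2 fold change of 0.59 (SE 0.101, adjusted p = 0.00101). ITGAV, the alpha v chain that also reads RGD motifs, was at 231, 217 and 184 CPM in WT and 171, 213 and 175 CPM in KO, which overlapped (log2 fold change -0.18, adjusted p = 0.661).

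ITGA8, a chain of the nephronectin receptor (ENSG00000077943.7, chromosome 10, 15513949 to 15720125), was low throughout, with 73, 41 and 21 counts in WT and 1, 8 and 4 counts in KO. In CPM these are 5.06, 3.37 and 1.78 against 0.0802, 0.493 and 0.341, without overlap. For ITGA8 the log2 fold change was -3.39 (SE 0.619, adjusted p = 0.000846). ITGB3, the beta 3 chain of the vitronectin receptor (ENSG00000259207.7, chromosome 17, 47253846 to 47311816), was at 13.8, 14.8 and 9.06 CPM in WT and 2.89, 3.82 and 4.86 CPM in KO, again apart. Its log2 fold change was -1.71 (SE 0.268, adjusted p = 0.00049). The fall of ITGB3 and ITGA8 concerned scarce transcripts, with mean RPKM of 2.86 and 0.452 in WT.

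**Figure D2:**
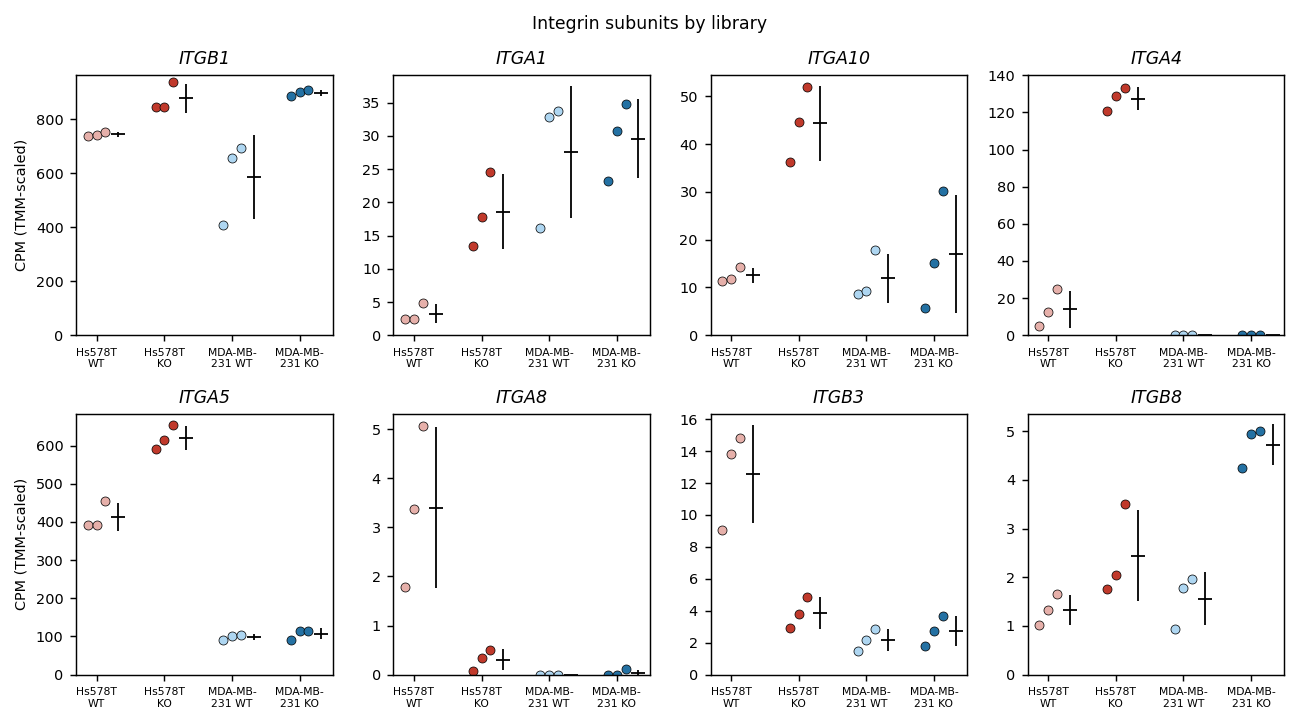
TMM-scaled CPM of 8 integrin subunits on a linear vertical axis that starts at 0, with 1 point per library, in order of value, in each of the 4 groups and the mean and SD (n = 3) beside the points. In Hs578T the CD44 KO points of ITGA1, ITGA10, ITGA4 and ITGA5 lie above and those of ITGA8 and ITGB3 below all CD44 WT points, and in MDA-MB-231 those of ITGB8 and ITGB1 lie above.

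The 13 subunits not called in Hs578T had log2 fold changes between -1.39 and 0.90, and 7 of them had an unadjusted p under 0.05. ITGA6 came closest, at 202, 209 and 226 CPM in WT and 293, 328 and 255 CPM in KO (log2 fold change 0.46, SE 0.142, adjusted p = 0.044). ITGA3 was at 781, 843 and 754 CPM in WT and 938, 887 and 862 CPM in KO, without overlap, and its log2 fold change of 0.18 had an adjusted p of 0.172.

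In MDA-MB-231, 1 of the 19 subunits was called, ITGB8, which rose. This is 5.26% of the subunits, beside 4.62% of all genes (1.97% higher and 2.65% lower). The groups were apart for 5 subunits, 3 higher (ITGA7, ITGB1 and ITGB8) and 2 lower (ITGA3 and ITGB2) in KO, beside 25.5% of all genes (11.8% higher and 13.7% lower). The median log2 fold change was 0.14, against -0.01 for all genes.

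ITGB8, the beta 8 chain known for activating latent TGF-beta (ENSG00000105855.9, chromosome 7, 20330702 to 20415754), was at 0.943, 1.78 and 1.96 CPM in the MDA-MB-231 CD44 WT libraries (replicate 1, replicate 3 and the library with no replicate number) and at 4.998, 4.24 and 4.94 CPM in CD44 KO. Every KO library was above every WT library, at low levels of at most 0.312 RPKM on average. This is a log2 fold change of 1.58 (SE 0.312, adjusted p = 0.00384). The call was lost in 5 of the 12 fits that left out a library (WT replicates 1 and 3 and each KO replicate), with adjusted p of up to 0.0147 and fold changes of 1.32 to 1.77. Over all genes these 5 fits called 355 to 659 in MDA-MB-231, beside 731 with all 12 libraries. In Hs578T the KO libraries of ITGB8, at 1.76, 3.51 and 2.05 CPM, were also above the WT libraries, at 1.32, 1.65 and 1.02 CPM, with a log2 fold change of 0.90 and an adjusted p of 0.0800.

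ITGB1 (ENSG00000150093.18, chromosome 10, 32900319 to 33005792), the gene of the sort marker CD29, was higher in every KO library than in every WT library of both lines without being called in either. In Hs578T it was at 738, 754 and 741 CPM in WT and 847, 940 and 847 CPM in KO (log2 fold change 0.24, SE 0.141, adjusted p = 0.302). In MDA-MB-231 it was at 409, 659 and 696 CPM in WT and 888, 910 and 902 CPM in KO (log2 fold change 0.61, SE 0.141, adjusted p = 0.0116).

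The low value in MDA-MB-231 was that of CD44 WT replicate 1, the library that lay farthest from its group over all genes. Without this library the log2 fold change of ITGB1 was 0.41 and the gene was called (adjusted p = 0.00196), and it was also called without the library that has no replicate number (0.75, adjusted p = 0.00464) and with DESeq2 (0.63, adjusted p = 0.00109). Of the 12 fits without a library only these 2 called ITGB1 in MDA-MB-231, and its adjusted p reached 0.0423 in the remaining fits. The difference of the changes between the lines was -0.38 (SE 0.199, adjusted p = 0.267).

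Replicate 1 of MDA-MB-231 CD44 WT was also the lowest of its group for ITGA2 and ITGA3, but the highest for ITGB5, with 108 CPM against 95.5 and 97.6 CPM. ITGA2 was at 103, 232 and 261 CPM in WT and at 240, 337 and 371 CPM in KO, where only the lowest KO library reached down among the WT libraries (log2 fold change 0.67, adjusted p = 0.12). ITGA3 was at 874, 950 and 915 CPM in WT and at 716, 821 and 791 CPM in KO, without overlap and in the opposite direction to Hs578T (log2 fold change -0.23, adjusted p = 0.0866). The 18 subunits that were not called in MDA-MB-231 included 7 with an unadjusted p under 0.05.

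The change in CD44 KO cells differed between the lines for 2 of 19 subunits, 1 in each direction (10.5%, beside 4.12% of all genes, 2.33% with a larger and 1.79% with a smaller log2 change in Hs578T). For ITGA1 the difference of the log2 fold changes, Hs578T minus MDA-MB-231, was 2.43 (SE 0.444, adjusted p = 0.0026), as the MDA-MB-231 libraries overlapped at 16.1, 33.7 and 32.8 CPM in WT and 23.2, 30.7 and 34.9 CPM in KO. For ITGB3 it was -2.02 (SE 0.426, adjusted p = 0.00682), with 1.46, 2.84 and 2.14 CPM in MDA-MB-231 CD44 WT and 1.78, 2.70 and 3.65 CPM in CD44 KO. Leaving out single libraries removed the ITGA1 call in 2 of 12 fits and the ITGB3 call in 8 of 12. Over all genes the 12 fits called 396 to 804 for the difference, beside 653 with all libraries.

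ITGA4, ITGA8 and ITGA11 had 1, 2 and 0 counts in all 6 MDA-MB-231 libraries together. Their differences were among the 19 tested and were not called (adjusted p of 0.627, 0.158 and 1), but no fold can be given for that line. For ITGA10 the difference was 1.34 (SE 0.558, adjusted p = 0.147) and for ITGA5 it was 0.47 (SE 0.144, adjusted p = 0.0486). ITGA7, a laminin-binding chain of muscle, was lower in KO in Hs578T and higher in KO in MDA-MB-231 without overlap in either line. Its difference of -1.95 had an adjusted p of 0.0167 and rested on 0.535 to 6.42 CPM.

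**Figure D3:**
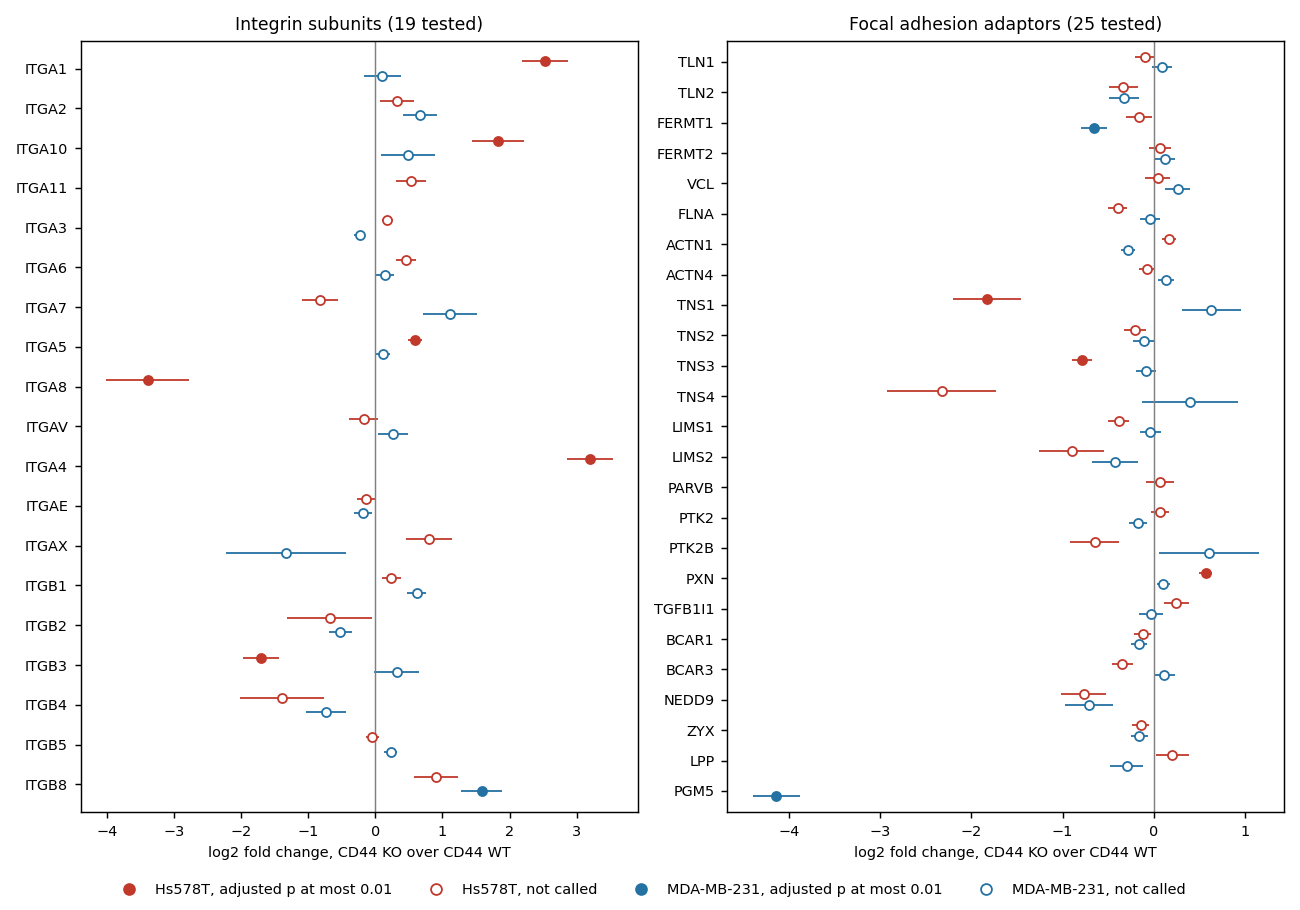
Log2 fold change, CD44 KO over WT (horizontal axis), with its standard error for the 19 subunits (left) and the 25 adaptors (right) tested, in Hs578T (red) and MDA-MB-231 (blue). Filled points have an adjusted p of at most 0.01, and points are left out where both groups had at most 3 counts; 6 subunits and 3 adaptors are filled in red, 1 subunit and 2 adaptors in blue.

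Most adaptors were not called in either line. In Hs578T 3 of 25 were called (12%, beside 7.51% of all genes), with paxillin higher and the tensins TNS1 and TNS3 lower. In MDA-MB-231 2 of 25 were called (8%, beside 4.62%), FERMT1 and PGM5, both lower. The median log2 fold changes were -0.14 and -0.09, and no adaptor and no subunit was called in both lines, beside 0.423% of all genes that were called with the same sign in both and 0.215% with opposite signs.

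PXN encodes paxillin, the scaffold that gathers kinases at the adhesion (ENSG00000089159.16, chromosome 12, 120210439 to 120265771). It was at 208, 216 and 211 CPM in Hs578T CD44 WT and 330, 313 and 296 CPM in CD44 KO, tight groups that lay apart. Its log2 fold change was 0.57 (SE 0.0729, adjusted p = 8.43e-05). In MDA-MB-231 PXN was at 457, 468 and 442 CPM in WT and 473, 495 and 499 CPM in KO, also without overlap but with a log2 fold change of 0.10 (adjusted p = 0.435). The difference of 0.46 between the lines (SE 0.103, adjusted p = 0.00978) was near the threshold and was lost in 11 of the 12 fits without a library.

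All 4 tensins were fitted below 0 in Hs578T, the median being -1.31 on the log2 scale. TNS3 (ENSG00000136205.16, chromosome 7, 47275154 to 47582558) was at 136, 121 and 106 CPM in WT and 67.5, 68.5 and 73.8 CPM in KO, well apart. Its log2 fold change was -0.79 (SE 0.112, adjusted p = 0.000217), and the call held whichever library was left out. In MDA-MB-231 the TNS3 libraries overlapped, at 109, 131 and 144 CPM in WT and 122, 127 and 112 CPM in KO (log2 fold change -0.09, adjusted p = 0.697), and the difference between the lines of -0.70 had an adjusted p of 0.011.

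TNS1 (ENSG00000079308.17, chromosome 2, 217799588 to 218010421) was at 13.7, 8.97 and 3.64 CPM in Hs578T CD44 WT and 1.85, 3.27 and 2.22 CPM in CD44 KO. WT replicate 3 was close to the KO libraries. Over all libraries the log2 fold change was -1.83 (SE 0.372, adjusted p = 0.00323), and -1.34 (adjusted p = 0.0235) without WT replicate 1. The call was also lost without WT replicate 2, KO replicate 1 or KO replicate 3, and with Hs578T filtered and fitted alone (-1.83, adjusted p = 0.0105).

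In MDA-MB-231 TNS1 pointed the other way, at 8.23, 6.89 and 6.95 CPM in WT and 12.5, 12.3 and 9.09 CPM in KO, apart but not called (log2 fold change 0.63, adjusted p = 0.258). The difference between the lines was -2.46 (SE 0.493, adjusted p = 0.00486), lost in 7 of 12 fits without a library. TNS4 just missed the threshold in Hs578T (6.45, 6.91 and 3.22 CPM against 0.882, 1.48 and 0.853 CPM, log2 fold change -2.33, adjusted p = 0.0119), and TNS2 was fitted at -0.21 (adjusted p = 0.28). Hs578T CD44 WT replicate 3 was the WT library lowest in TNS1, TNS2, TNS3 and TNS4, and without it 8 adaptors were called in Hs578T in place of 3.

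**Figure D4:**
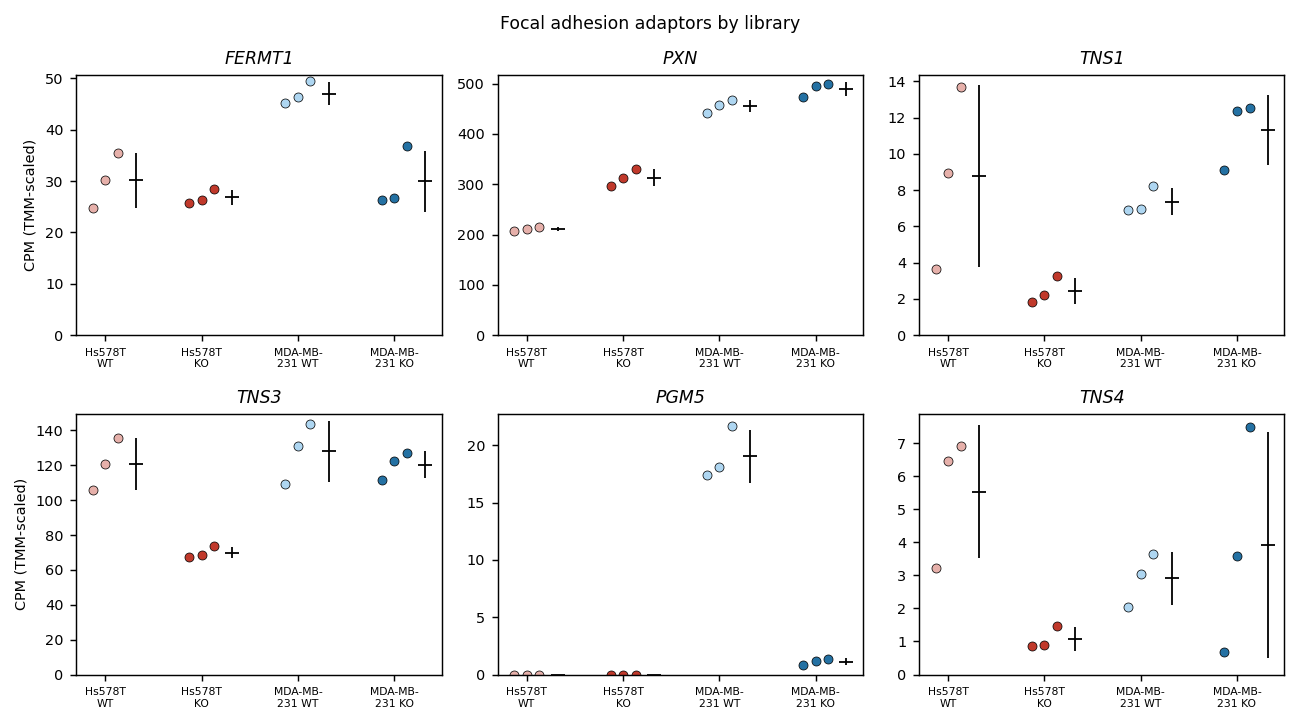
TMM-scaled CPM of the 5 called adaptors and TNS4 on a linear vertical axis from 0, with 1 point per library, in order of value, in each of the 4 groups and the mean and SD (n = 3) beside the points. PXN is higher and TNS1, TNS3 and TNS4 are lower in Hs578T CD44 KO than in every CD44 WT library, while FERMT1 and PGM5 are lower in MDA-MB-231 CD44 KO.

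Of the talins and kindlins, which activate integrins, only FERMT1 was called. FERMT1, kindlin-1 (ENSG00000101311.15, chromosome 20, 6074845 to 6123544), was at 45.3, 49.5 and 46.4 CPM in MDA-MB-231 CD44 WT and 36.9, 26.3 and 26.7 CPM in CD44 KO. The groups were apart, with KO replicate 1 nearest to WT. FERMT1 fell by 0.65 on the log2 scale (SE 0.142, adjusted p = 0.00796). This call was lost in 9 of 12 fits without a library, with adjusted p of up to 0.0555 without KO replicate 2. It was also lost with RLE in place of TMM factors (adjusted p = 0.0102) and with MDA-MB-231 fitted alone (0.0315). A replicate block on the labels' numbers lost it too (0.0431). FERMT1 in Hs578T overlapped (log2 fold change -0.16, adjusted p = 0.514). TLN1, TLN2 and FERMT2 had log2 fold changes of -0.33 to 0.12 in the 2 lines, and none was called.

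PGM5, a phosphoglucomutase relative found at adhesions of muscle cells (ENSG00000154330.12, chromosome 9, 68328308 to 68531061), had the largest fitted change of any adaptor. It had 211, 267 and 195 counts in MDA-MB-231 CD44 WT and 16, 15 and 12 counts in CD44 KO, which is 18.1, 21.7 and 17.4 CPM against 1.36, 0.795 and 1.19 CPM. Both groups were tight and far apart, and the log2 fold change was -4.14 (SE 0.259, adjusted p = 1.45e-06). In Hs578T PGM5 had 0 counts in all 6 libraries. PGM5 has near-identical copies in the genome and fragments that aligned to several places were not counted, so its level is uncertain.

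FLNA, ACTN4, ZYX, TLN1 and VCL, the 5 highest adaptors by RPKM in Hs578T CD44 WT, were not called in either line. FLNA, filamin A, was at 113 ± 17.8 RPKM in Hs578T CD44 WT and 85.5 ± 1.94 in CD44 KO, all KO libraries lower (log2 fold change -0.40, SE 0.108, adjusted p = 0.0223). ACTN4, an alpha-actinin, was at 86.8 ± 5.43 and 82.5 ± 1.00 RPKM in Hs578T and 172 ± 17.1 and 188 ± 6.77 RPKM in MDA-MB-231. ACTN1 was higher in each Hs578T CD44 KO library and lower in each MDA-MB-231 CD44 KO library, with log2 fold changes of 0.16 and -0.28 and a difference of 0.45 (adjusted p = 0.0198).

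Talin TLN1 stood at 45.4 ± 3.63 and 42.6 ± 2.51 RPKM in Hs578T WT and KO, and at 74.7 ± 4.85 and 79.3 ± 13.02 RPKM in MDA-MB-231. PTK2 (focal adhesion kinase), VCL (vinculin), ZYX (zyxin) and the docking protein gene BCAR1 had log2 fold changes between -0.18 and 0.26 in both lines, without a call. The adaptors not called ranged from -2.33 to 0.25 in Hs578T, 7 of 22 with an unadjusted p under 0.05, and from -0.71 to 0.63 in MDA-MB-231, 2 of 23.

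Between the CD44 WT groups 14 of 19 subunits (73.7%) and 17 of 25 adaptors (68%) were called, beside 61.5% of all genes, a share near that of the transcriptome. In Hs578T 9 subunits were higher and 5 lower, and 4 adaptors were higher and 13 lower, beside 32.2% and 29.4% of all genes.

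Some members had almost all of their counts in 1 line. ITGA11, a collagen-binding chain of mesenchymal cells, had 1794 counts in Hs578T CD44 WT and 0 in MDA-MB-231 CD44 WT, at least 549-fold higher in Hs578T if the MDA-MB-231 group is set to 3 counts in all, the floor used here. ITGA8 was at least 41.3-fold higher on the same floor, and PARVB, beta-parvin, was 417-fold higher (95% counting interval 142 to 2020, from 1362 and 3 counts). PGM5 was at least 245-fold higher in MDA-MB-231. ITGB2, the leukocyte beta chain, and ITGB4, the hemidesmosome chain, were also higher in MDA-MB-231, with log2 differences of Hs578T minus MDA-MB-231 of -6.32 (SE 0.419) and -3.95 (SE 0.415). ITGA4 had 516 counts in Hs578T CD44 WT and 1 in MDA-MB-231 CD44 WT, and ITGA1 was lower in Hs578T by a log2 difference of -3.09 (SE 0.347).

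The matrix genes that integrins bind were followed beside their receptors in a list of 35 ligands, also chosen with earlier results known, of which 31 were tested. In Hs578T 5 rose and 3 fell (25.8%, beside 7.51% of all genes), and in MDA-MB-231 2 rose (6.45%, beside 4.62%). COL1A2, a chain of collagen I, had the largest fall in Hs578T, at 103, 104 and 70.8 CPM in WT and 1.69, 2.96 and 2.13 CPM in KO (log2 fold change -5.32, SE 0.235, adjusted p = 9.88e-09). LAMA2, the alpha chain of laminin-211, had the largest rise, at 4.72, 7.49 and 7.45 CPM in WT and 81.1, 116 and 77.7 CPM in KO (log2 fold change 3.82, SE 0.195, adjusted p = 1.09e-08), and COL3A1, collagen III, followed with 2.91, 4.11 and 3.05 against 11.1, 36.1 and 19.4 CPM (2.74, SE 0.347, adjusted p = 7.19e-05). The groups of these 3 genes were apart. COL1A1, the other chain of collagen I, was not called in Hs578T, at 3417 CPM in WT and 3568 CPM in KO on average (log2 fold change 0.06, adjusted p = 0.868).

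LAMB3, a chain of laminin-332, and the matricellular CCN1 fell in Hs578T by 1.01 and 1.06 on the log2 scale, calls lost in 1 and 3 of 12 fits without a library. VCAM1, a ligand of the alpha 4 chain named here after its values were seen, rose from 2.52 to 11.1 CPM on average (log2 fold change 2.12, adjusted p = 0.00911), a call lost in 6 of 12 such fits and with DESeq2 (adjusted p = 0.0564). In MDA-MB-231 the matricellular THBS1, thrombospondin-1, was at 156, 202 and 190 CPM in WT and 440, 347 and 445 CPM in KO (log2 fold change 1.17, SE 0.156, adjusted p = 0.000243), all KO libraries above WT. LAMB1, a laminin beta chain, rose by a log2 fold change of 0.42, a call lost in 8 of 12. The changes of LAMA2 and THBS1 differed between the lines, by 3.69 (SE 0.419) and -1.20 (SE 0.221), Hs578T minus MDA-MB-231, the THBS1 call being lost in 4 of 12 fits.

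Of 48 other adhesion genes, also chosen with earlier results known, 41 were tested. One rose and 5 fell in Hs578T (14.6%, beside 7.51% of all genes), and 1 rose and 4 fell in MDA-MB-231 (12.2%, beside 4.62%). KANK1, which links talin to microtubule capture sites, fell in both lines, from 55.8, 42.4 and 34.8 to 19.3, 22.4 and 17.997 CPM in Hs578T (log2 fold change -1.15, SE 0.157) and from 23.1, 21.5 and 25.4 to 13.4, 10.6 and 12.7 CPM in MDA-MB-231 (-0.94, SE 0.168), a call lost in MDA-MB-231 in 1 of 12 fits without a library. ITGB1BP1, a negative regulator that binds the ITGB1 tail, fell by 0.41 in Hs578T and by 0.49 in MDA-MB-231 on the log2 scale, calls lost in 7 and 2 of 12 fits without a library. Neither gene's groups overlapped in either line.

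The exchange factor ARHGEF7 and the myosin light chain MYL9 fell in Hs578T by 0.66 and 0.76 on the log2 scale, the MYL9 call being lost in 2 of 12 fits. In MDA-MB-231 ILK, the integrin-linked pseudokinase, and PARVA, its partner alpha-parvin, fell together, ILK from 329, 311 and 292 to 215, 221 and 225 CPM (log2 fold change -0.50, SE 0.0791) and PARVA from 129, 159 and 160 to 98.1, 92.1 and 87.7 CPM (-0.69, SE 0.0934). Both lie on chromosome 11, as CD44 does, ILK from 6603708 to 6610874 and PARVA from 12377185 to 12530801. Any part of this position in the change was not tested. In Hs578T the ILK libraries overlapped, at 172, 188 and 195 CPM in WT and 178, 167 and 165 CPM in KO. PARVA was there at 223, 204 and 212 CPM in WT and 185, 201 and 183 CPM in KO. The PINCH genes LIMS1 and LIMS2, whose proteins complete the complex of ILK and alpha-parvin, were not called (-0.04 and -0.43 in MDA-MB-231). KANK2 rose in MDA-MB-231 by a log2 fold change of 0.60, a call lost in 9 of 12 fits.

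**Figure D5:**
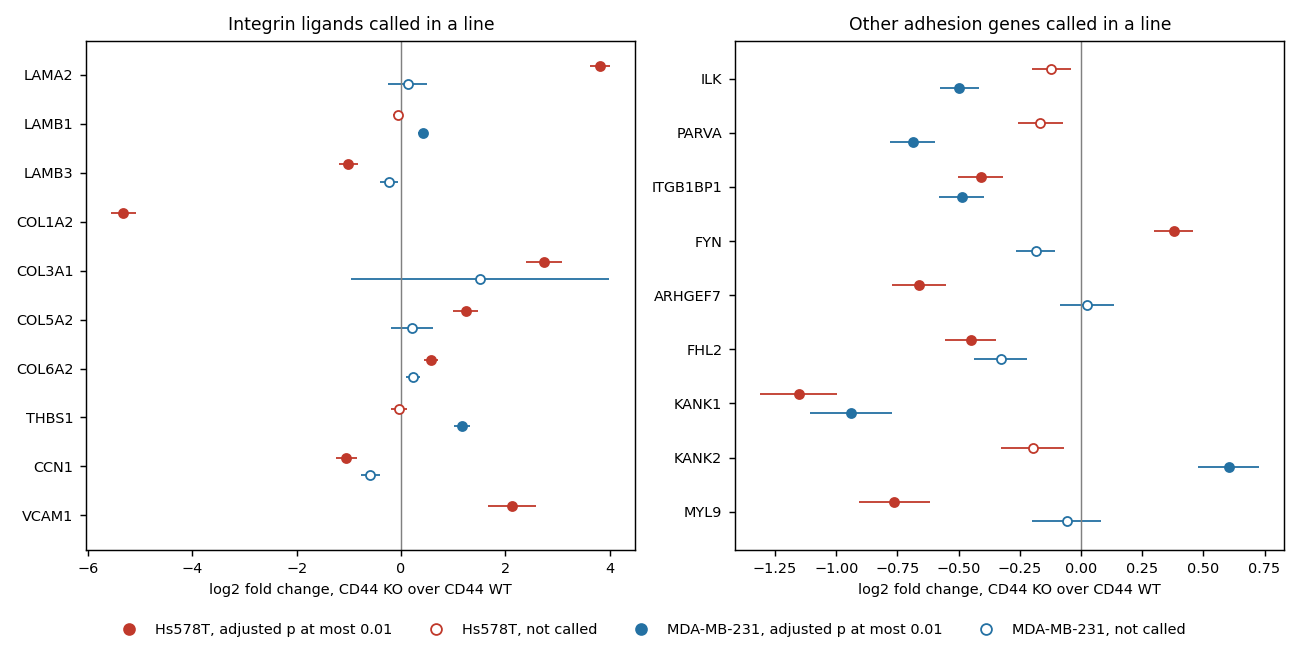
Log2 fold change, CD44 KO over WT (horizontal axis), with its standard error for the 10 integrin ligands (left) and 9 other adhesion genes (right) that were called in at least 1 line, in Hs578T (red) and MDA-MB-231 (blue), filled where the adjusted p was at most 0.01. Points are left out where both groups had at most 3 counts. KANK1 and ITGB1BP1 are filled in both colours.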

How the data were processed

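The deposited table gives raw fragment counts per gene for 12 libraries, with the exonic length of each gene. Per the labels and methods, the authors aligned stranded paired-end reads to GRCh38 with HISAT2 2.1.0 and counted them with featureCounts 1.6.2 on GENCODE genes. Fragments that aligned to several places were not counted.

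Genes of 300 nt or more that exceeded 1 CPM in 2 or more libraries were fitted in edgeR 4.0.16 (R 4.3.3) with TMM factors, 4 group means and the legacy quasi-likelihood fit, with a threshold of 0.01 for the adjusted p. The fit was tested on simulated data. RPKM are TMM-scaled CPM per kilobase. The alternatives were DESeq2 1.42.0, RLE factors, other filters, each line alone, a looser threshold, 2 replicate blocks and each library left out.

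The members and lists were chosen with earlier results of these data known. Members called in a line were given in every library, ITGB1 always, other members by counts, ranges or rank among the 5 highest by RPKM, and the 8 companion genes of lowest p in each line. Other genes named were chosen after their values were seen. Every library had a group. The name of 1 MDA-MB-231 CD44 WT library is in the labels of more than 1 sample of that group, so it was used without a replicate number. Depth limits the precision for members of few counts, and intervals cover counting error only.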

Additional observations from a re-analysis of the deposited data

Results flagged for a closer look

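The change of CD44 KO over CD44 WT differed between Hs578T and MDA-MB-231, tested as the difference of the log2 fold changes (Hs578T minus MDA-MB-231) in edgeR with adjustment over all genes, for 4 members, 4 ligands and 1 other adhesion gene. The difference was 2.43 for ITGA1 (adjusted p = 0.0026), which rose in Hs578T, and -2.02 for ITGB3 (adjusted p = 0.00682), which fell there. It was -2.46 for TNS1 (adjusted p = 0.00486), the only 1 of these members whose KO libraries lay below WT in Hs578T and above WT in MDA-MB-231. It was 0.46 for PXN (adjusted p = 0.00978), higher in every KO library of both lines. Among the ligands it was 3.69 for LAMA2 (adjusted p = 7.88e-05), called higher in Hs578T and not called in MDA-MB-231. For THBS1, called higher in MDA-MB-231 and not called in Hs578T, the difference was -1.20 (adjusted p = 0.00303). It was -0.67 for COL4A2, a chain of collagen IV (adjusted p = 0.00841), and -2.57 for TNC, tenascin-C (adjusted p = 0.00744), both named after their values were seen and called in neither line alone. For the kinase gene FYN it was 0.56 (adjusted p = 0.00517), with log2 fold changes of 0.38 in Hs578T and -0.19 in MDA-MB-231. Leaving out single libraries removed the call for COL4A2 in 10, TNC in 9, FYN in 9 and THBS1 in 4 of 12 fits.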

How the results depend on the processing

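No called gene, nor ITGB1, changed direction under any alternative run, whereas other uncalled members were not followed, and PGM5, PXN, TNS3, ITGA1, ITGA4, ITGA5, ITGA8 and ITGB3 kept their calls within their line in every fit without a library. DESeq2 called 2 subunits in MDA-MB-231, 5 adaptors in Hs578T, 4 subunits and 5 adaptors for the difference between the lines, and 12 ligands and other adhesion genes in MDA-MB-231 in place of 7. RLE factors left 1 adaptor in MDA-MB-231 and 1 for the difference. Without a filter, 4 subunits in MDA-MB-231, 4 for the difference, 7 adaptors in Hs578T, and 24 and 17 ligands and other adhesion genes in Hs578T (14 with the filter) and MDA-MB-231 were called. Each line fitted alone gave 1 adaptor in MDA-MB-231 and 23 ligands and other adhesion genes in Hs578T. An adjusted p of at most 0.05 gave 2 subunits in MDA-MB-231 and 5 for the difference, 6 adaptors in Hs578T and 5 for the difference, and 22 and 14 ligands and other adhesion genes. The cause of these shifts was not tested. At least 10 counts in every library of a group left all counts within 1.5 times.

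Deviations from the group mean of KO and WT libraries with the same replicate number correlated at -0.096 to 0.164. Libraries of the same block of consecutive library numbers correlated at 0.008 to 0.164. With 3 libraries per group, such weak correlations cannot show whether the samples were paired. A replicate block on the labels' numbers, which leaves out the library without a number, gave 1 subunit and 0 adaptors for the difference, 1 adaptor in MDA-MB-231 and 3 ligands and other adhesion genes there. In that fit ITGB8 was lost (adjusted p = 0.0169) and ITGB1 was called (adjusted p = 0.008) in MDA-MB-231. A block on consecutive library numbers gave 2 subunits in MDA-MB-231. Over all genes the block on the labels' numbers called 1076 in Hs578T, 436 in MDA-MB-231 and 471 for the difference. The block on consecutive numbers called 1305, 824 and 742, beside 1189, 731 and 653 without a block.

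With single libraries left out, the subunits called were 5 to 7 in Hs578T, 0 to 2 in MDA-MB-231, 0 to 2 for the difference and 14 to 15 between the WT lines. The adaptors were 2 to 8, 1 to 2, 0 to 3 and 15 to 17, and the ligands and other adhesion genes 7 to 20 in Hs578T and 3 to 9 in MDA-MB-231. Over all genes the same fits called 605 to 1685 in Hs578T, 355 to 763 in MDA-MB-231 and 396 to 804 for the difference. Between the WT lines they called 8669 to 9827. With all libraries these numbers were 1189, 731, 653 and 9742.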
